A study of Mus musculus with 3 samples.

Results

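The genes described here copy DNA and divide the cell. A list of 42 members was described, of which 24 act in mitosis, 17 act in DNA replication and its onset in S phase, and Ccnd1, a cyclin of G1 phase, was kept apart. A member was taken as every probe set that the array platform names with its symbol alone. In this way 41 of the 42 members were measured, out of 18193 genes on the arrays. Ccnb1 has no probe set named for it here, which leaves 23 mitosis members. The measured members have 100 probe sets of their own, of 45037 probe sets on the arrays, and 2 more probe sets that name Tyms or Foxm1 together with other genes were set aside.

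The question was how these genes differed in the back skin of WT mice (C57BL/6J), of mice with an Interleukin-10 knockout (KO), and of knockout mice given powdered eggshell membrane, pESM (KOE). The labels give all 3 groups as male. The diet was AIN-93-based for WT and KO and held 8% pESM for KOE, and the knockout is homozygous and present in the whole body. Feeding lasted 28 weeks from an age of 4 weeks, in groups of 5 (WT), 7 (KO) and 6 (KOE) mice, and each group gave 250 ng of pooled RNA to 1 Affymetrix mouse expression array. The sources used here do not give the mice in each pool. The KO mice were bred from the knockout strain B6.129P2-IL-10<tm1Cgn>/J crossed with C57BL/6J, so the knockout and the cross cannot be told apart in KO vs. WT, and WT mice on the pESM diet were not analysed here. A single array per group allows neither a replicate check nor a test, and the values describe 3 pools of RNA.

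A dividing cell first licenses its origins of replication by loading the MCM helicase in G1 phase, then fires them in S phase and copies the DNA with the help of the clamp PCNA and a supply of deoxynucleotides. Genes for these steps are switched on by E2F transcription factors near the start of S phase. The genes for mitosis are expressed later, in G2 and M phase, and many of them carry a cell cycle homology region and CCAAT boxes near their start, through which the MuvB complex with B-MYB or FOXM1 and the factor NF-Y act. In the skin, dividing cells are found in the basal layer of the epidermis and, during hair growth, above all in the matrix of the hair follicle.

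The promoters are shown because they set the 2 classes apart without any array value. RefSeq promoter windows, from 250 bases before to 50 bases after the transcription start (build GRCm38.p6), were at hand for 33 members, 20 of mitosis and 13 of replication. The cell cycle homology region was searched as TTTGAA, the CCAAT box as CCAAT, and the E2F motif as TTTCCCGC, TTTCGCGC, TTTGCCGC or TTTGGCGC, each on both strands. E2F matches on opposite strands may overlap and were then counted separately. Of the 20 mitosis members, 15 (75.0%) held the cell cycle homology region, against 1 of the 13 replication members (7.69%), Mcm2, and 18.5% of 17491 protein-coding genes. The E2F motif showed the opposite order, with 6 of 13 replication members (46.2%), 1 of 20 mitosis members (5.00%), Cdk1, and 3.29% of the protein-coding genes. CCAAT boxes were present in 90.0% of the mitosis members, 61.5% of the replication members and 42.3% of the protein-coding genes. A match describes letters in the window and is not evidence of binding. The lack of a match means only that the words searched are missing from the window.

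The first 280 bases of each window, which end 30 bases after the start, are printed for the 3 members of each class that had the lowest ratios of KO to WT among members with a motif. Cdc20 and Cdk1 were added after the motifs were seen, because they hold the cell cycle homology region beside CCAAT boxes near the start. Capitals mark the motifs searched, and all sequences run 5′ to 3′ along the gene. The mitosis members are Cenpe at chr3:135212313-135212592 on the plus strand, Mki67 at chr7:135716350-135716629 on the minus strand, Bub1 at chr2:127831830-127832109 on the minus strand, Cdc20 at chr4:118437314-118437593 on the minus strand and Cdk1 at chr10:69352883-69353162 on the minus strand.
Cenpe: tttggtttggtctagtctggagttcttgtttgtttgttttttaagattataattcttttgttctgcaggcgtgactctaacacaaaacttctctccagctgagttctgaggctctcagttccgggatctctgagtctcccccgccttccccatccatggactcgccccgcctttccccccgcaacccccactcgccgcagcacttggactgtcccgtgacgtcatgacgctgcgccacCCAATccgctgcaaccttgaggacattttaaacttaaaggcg
Mki67: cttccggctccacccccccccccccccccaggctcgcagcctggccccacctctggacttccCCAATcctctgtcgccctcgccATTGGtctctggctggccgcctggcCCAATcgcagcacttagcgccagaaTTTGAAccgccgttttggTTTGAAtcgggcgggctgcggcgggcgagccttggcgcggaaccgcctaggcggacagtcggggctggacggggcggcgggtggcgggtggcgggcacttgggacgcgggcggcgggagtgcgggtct
Bub1: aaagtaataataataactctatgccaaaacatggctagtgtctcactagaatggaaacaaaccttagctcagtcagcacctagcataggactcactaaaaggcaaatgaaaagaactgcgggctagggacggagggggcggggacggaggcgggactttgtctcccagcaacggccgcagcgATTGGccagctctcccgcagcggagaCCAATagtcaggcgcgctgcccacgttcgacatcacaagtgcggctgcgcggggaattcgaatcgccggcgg
Cdc20: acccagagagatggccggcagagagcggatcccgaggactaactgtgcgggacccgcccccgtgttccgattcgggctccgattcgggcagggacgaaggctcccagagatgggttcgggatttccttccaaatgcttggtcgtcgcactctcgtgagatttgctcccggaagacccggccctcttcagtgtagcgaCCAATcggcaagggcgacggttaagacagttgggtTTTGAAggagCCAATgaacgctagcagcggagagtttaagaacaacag
Cdk1: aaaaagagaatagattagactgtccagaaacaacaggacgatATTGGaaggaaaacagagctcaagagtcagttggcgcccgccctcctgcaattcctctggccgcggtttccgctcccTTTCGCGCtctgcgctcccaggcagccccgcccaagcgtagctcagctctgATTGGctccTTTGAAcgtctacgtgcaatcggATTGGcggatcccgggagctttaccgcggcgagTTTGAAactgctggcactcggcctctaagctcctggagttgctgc

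The replication members are Mcm2 at chr6:88898751-88899030 on the minus strand, Mcm6 at chr1:128359676-128359955 on the minus strand and Mcm5 at chr8:75109259-75109538 on the plus strand. Mcm2 holds a match to the cell cycle homology region and none to the E2F motif. Mcm6 and Mcm5 hold matches to the E2F motif and none to the cell cycle homology region. In Mcm6 and Mcm5 some capitals join 2 E2F matches on opposite strands.
Mcm2: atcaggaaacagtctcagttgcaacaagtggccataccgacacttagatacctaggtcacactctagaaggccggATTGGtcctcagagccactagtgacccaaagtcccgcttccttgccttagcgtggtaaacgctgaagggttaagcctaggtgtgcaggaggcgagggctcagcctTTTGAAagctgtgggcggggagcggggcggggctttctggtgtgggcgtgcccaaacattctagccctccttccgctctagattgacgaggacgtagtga
Mcm6: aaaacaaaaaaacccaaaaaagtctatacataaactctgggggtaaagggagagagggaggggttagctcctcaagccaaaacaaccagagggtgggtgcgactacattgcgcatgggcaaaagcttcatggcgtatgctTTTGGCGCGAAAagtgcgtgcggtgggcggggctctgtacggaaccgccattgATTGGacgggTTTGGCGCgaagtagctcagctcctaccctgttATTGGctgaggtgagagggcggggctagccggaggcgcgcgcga
Mcm5: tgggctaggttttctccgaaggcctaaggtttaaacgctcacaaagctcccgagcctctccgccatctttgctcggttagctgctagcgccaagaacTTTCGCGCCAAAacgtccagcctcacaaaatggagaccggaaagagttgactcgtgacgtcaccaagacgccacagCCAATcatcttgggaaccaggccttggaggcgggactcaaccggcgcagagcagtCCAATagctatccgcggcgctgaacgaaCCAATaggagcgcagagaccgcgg

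In the mitosis members, 16 of 19 cell cycle homology regions started no farther than 100 bases before the start, and 28 of 44 CCAAT boxes did so. Prc1 has 2 overlapping windows, whose 2 shared sites were counted once. Birc5 and Nusap1 held no match to the 3 motifs in this window, and neither did Ccne1, E2f1 and Tyms among the replication members.

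**Figure D1:**
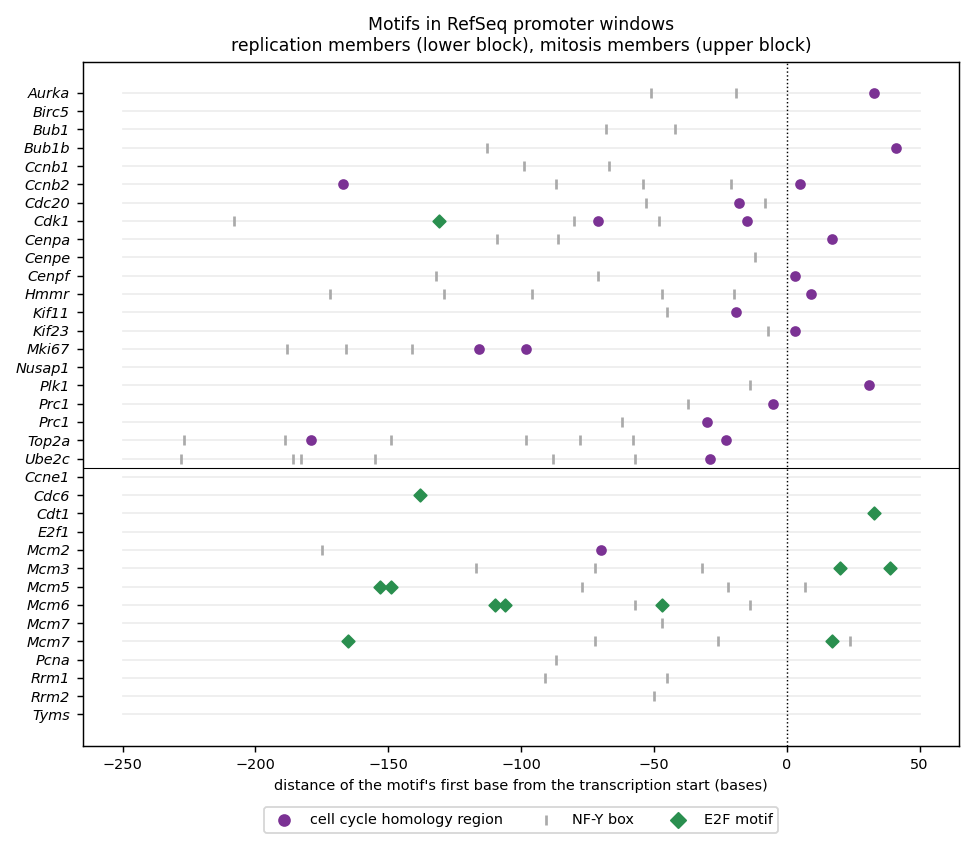
Motifs in the RefSeq promoter windows of 33 members, 1 row per window, with the distance in bases of each motif from the transcription start on the x axis (dotted line at the start). Circles mark the cell cycle homology region, bars the CCAAT box bound by NF-Y, and diamonds the E2F motif. Circles appear in 15 of 20 mitosis members and in Mcm2 alone among the replication members, and diamonds appear in 6 of 13 replication members and in Cdk1.

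Signals are linear intensities that the authors had scaled to the same trimmed mean on each array. Where a gene had several probe sets, the one with the highest mean over the 3 arrays was used. A difference was counted when it was at least 1.5-fold and the signal reached 40 in at least 1 of the 2 arrays, which is the cut-off the study's methods give, although they do not say which array must reach 40. All 41 members reached 40 in WT and in KO, and Tyms alone fell short of 40 in KOE, with a signal of 38.6. Markers of skin were strong on each array, among them Krt5 of the basal epidermis, with signals of 19214 (WT), 23513 (KO) and 24499 (KOE). In bulk tissue, fewer cells of a type and less RNA per cell cannot be told apart.

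Almost all mitosis genes had lower signals in KO than in WT, while most replication genes were not past the cut-off. Of the 23 mitosis members, 20 were past the cut-off, all of them lower, and the median log2 fold change was −0.98. Of the 17 replication members, 3 were past the cut-off, also lower, and the median was −0.24. Among all 14495 genes that reached 40 in either array, 14.5% were lower past the cut-off, 10.9% were higher, and the median log2 fold change was 0.01. The medians of the 2 classes differed by −0.73 on the log2 scale. Probe sets of the same member differed in their log2 fold change with an SD of 0.32, over probe sets that reached 40 on both, and of 0.67 where 40 in either array sufficed, and this spread is technical.

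Markers of the growing hair follicle, whose matrix holds dividing cells, moved with the mitosis members and far more strongly. Of 23 measured genes, 21 were past the cut-off in KO vs. WT, all lower, and the median log2 fold change was −6.45. Their summed signal was 230764 (WT), 7362 (KO) and 7772 (KOE), and 6 of the 23 lay under 40 in KO and 10 in KOE, but none in WT. Krt25 of the inner root sheath had 31928, 51.5 and 21.4. In KOE vs. KO, 5 of the 23 were lower past the cut-off and 1 was higher, beside 5.33% and 10.9% of all genes. In this comparison 18 of the 23 reached 40. The KOE signal was below KO in 8 of the 23, and the median log2 fold change was 0.15. Krt25 was 2.41-fold lower, with its KOE signal under 40. The part of the hair follicle in the lower signals of the members was not tested. Of 8 melanocyte markers 7 were lower past the cut-off in KO vs. WT, beside 14.5% of all genes. Their summed signal was 16425 (WT), 2562 (KO) and 3590 (KOE). In KOE vs. KO, 4 of the 8 were higher and 0 lower, unlike the members, beside 10.9% and 5.33% of all genes.

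**Figure D2:**
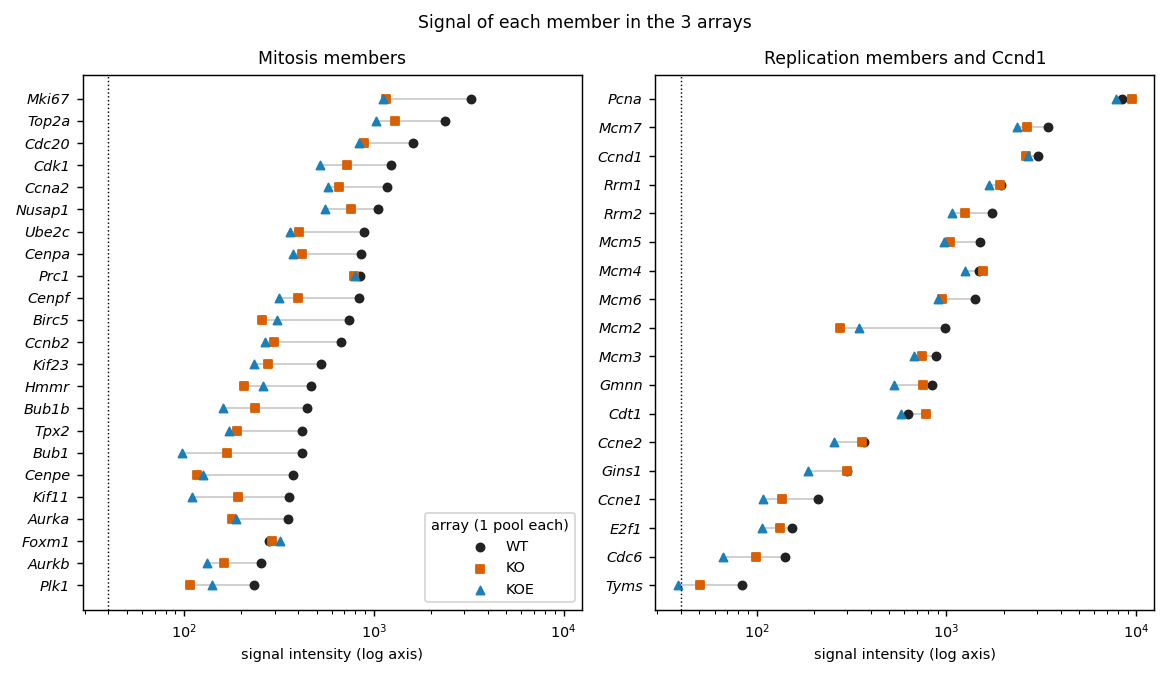
Signal intensity of each member (log axis) on the WT (circles), KO (squares) and KOE (triangles) arrays, 1 pooled array per group, with a dotted line at 40. The circle lies to the right of the square for 22 of 23 mitosis members, whereas circle and square lie close together for Pcna, Rrm1, Mcm4, Gins1 and Ccne2.

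At the probe sets used, the cyclins and kinases that drive entry into mitosis were lower in KO in 6 of 6 measured genes. The share of all genes that were lower was 14.5%. Cdk1, the kinase at the center of mitotic entry, had signals of 1232 (WT), 720 (KO) and 520 (KOE), and was 1.71-fold lower in KO. Its partner Ccnb2 (cyclin B2) had 670, 298 and 268 in the same order, and was 2.25-fold lower in KO. Both kept their order of WT above KO above KOE. Ccna2, cyclin A2, which acts in S phase as well as in mitosis, had 1174, 657 and 576. Plk1, a kinase of centrosomes and kinetochores, had 235, 107 and 141, and was 2.20-fold lower in KO. Aurka, the Aurora kinase of the spindle poles, had 354, 180 and 189, and Aurkb, the Aurora kinase of the centromere, had 255, 163 and 132. For Plk1 and Aurka the KOE signal lay a little above the KO signal, by less than the cut-off, and for the other members of this set it lay below. Not all KO vs. WT calls of this set held under other processing. With the arrays scaled to a common median, Ccna2, Cdk1 and Aurkb fell short of 1.5-fold. Their log2 fold changes were then −0.57, −0.51 and −0.37. Aurkb lost its call under 4 of 8 other settings. With the mean over its probe sets, Aurka turned to a log2 fold change of 0.66.

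Genes of the spindle checkpoint and of anaphase were also lower in KO, 4 of 4. Bub1, a checkpoint kinase of the kinetochore, had signals of 417 (WT), 168 (KO) and 97.8 (KOE). Bub1b, which encodes the checkpoint protein BUBR1, had 443, 236 and 160. Cdc20, which activates the anaphase-promoting complex, had 1601, 883 and 837, and Ube2c, the ubiquitin-conjugating enzyme of that complex, had 885, 403 and 363. All 4 were highest in WT and lowest in KOE.

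The largest differences among the mitosis members were in genes of the centromere and of mitotic chromosomes, 6 of 6 of which were lower in KO. Their median log2 fold change was −1.28. Cenpe, a kinesin of the kinetochore, was 3.21-fold lower, with signals of 377 (WT), 117 (KO) and 126 (KOE). Birc5, survivin, a subunit of the chromosomal passenger complex, was 2.85-fold lower, with 737, 259 and 309. Mki67, which coats mitotic chromosomes and encodes the Ki-67 marker of dividing cells, was 2.81-fold lower, with 3264, 1163 and 1121. In these genes the KO and KOE arrays lay close together, both far below WT. Cenpa, the histone H3 variant of the centromere, had 853, 418 and 374. Cenpf, a kinetochore protein, had 839, 400 and 317, and Top2a, the topoisomerase that untangles sister chromatids, had 2366, 1290 and 1022.

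Genes of the spindle and of cytokinesis were less uniform at the probe sets used, with 4 of 6 lower past the cut-off in KO. The KO signal was below WT in all 6. Kif11, the kinesin that pushes spindle poles apart, had signals of 357 (WT), 192 (KO) and 110 (KOE). Kif23, a kinesin of the central spindle, had 528, 277 and 234. Tpx2, which activates Aurora A on the spindle, had 420, 190 and 173, and Hmmr, a spindle protein that also binds hyaluronan, had 469, 208 and 262. Each of these 4 was highest in WT, and in Hmmr the KOE signal lay above KO. Nusap1, a microtubule-binding protein of the spindle, had 1050, 759 and 552, which is 1.38-fold lower in KO and not past the cut-off. Prc1, which bundles microtubules at the midzone, hardly differed at this probe set, with 841, 787 and 799. The second probe sets of Nusap1 (42.9, 23.0 and 53.1) and of Prc1 (761, 443 and 600) were both lower past the cut-off in KO.

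Foxm1, the forkhead transcription factor of mitosis genes, was the 1 mitosis member not lower in KO at the probe set used, with signals of 282 (WT), 290 (KO) and 320 (KOE). Its second probe set over 40 had 190, 96.9 and 111, which is past the cut-off in KO, so the 2 probe sets gave different calls. The probe set that names Foxm1 together with Tex52 and Pebp1 had 115, 41.7 and 49.0. The array therefore does not settle the level of Foxm1.

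Among the genes of DNA replication, the helicase held the largest difference and also some of the smallest. Mcm2, a subunit of the MCM helicase, had signals of 983 (WT), 275 (KO) and 348 (KOE) at the probe set used, and was 3.58-fold lower in KO. Its other probe set had 469, 365 and 340, which is not past the cut-off. The size of the Mcm2 difference thus depends on the probe set. The other subunits lay nearer to WT. Mcm5 had 1506, 1039 and 966, and Mcm6 had 1410, 951 and 903. Mcm7 had 3417, 2644 and 2351, and Mcm3 had 877, 740 and 675. Mcm4 had 1483, 1551 and 1254, and so was a little higher in KO than in WT. These 5 subunits were all lowest in KOE. Gins1, a subunit of the GINS complex that joins the helicase at the fork, had 298, 300 and 187. Mcm6 (1.48-fold lower in KO) and Mcm5 (1.45-fold) lay just outside the cut-off, and Aurkb (1.56-fold) and Ccne1 (1.54-fold) lay just inside.

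Licensing factors and their inhibitor did not reach the cut-off in KO vs. WT. Cdc6, which loads the helicase at origins, had signals of 141 (WT), 99.8 (KO) and 66.2 (KOE). Cdt1, its partner in loading, had 627, 779 and 573. At the probe sets used this was the highest ratio of KO to WT among the members, 1.24-fold. Gmnn, geminin, which blocks Cdt1 after S phase begins, had 839, 753 and 530. The KO signal lay above WT for Cdt1 and below it for Cdc6 and Gmnn.

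At the probe sets used for the genes of nucleotide supply and the clamp, Pcna and Rrm1 were nearly level between WT and KO. Rrm2 and Tyms were lower in KO there. Pcna, the sliding clamp and the strongest member, had signals of 8449 (WT), 9466 (KO) and 7788 (KOE). Rrm1 and Rrm2 encode the subunits of ribonucleotide reductase. Rrm1 had 1937, 1926 and 1686. Rrm2 had 1741, 1257 and 1076, which is 1.38-fold lower in KO and not past the cut-off. Tyms, thymidylate synthase, had 83.6, 50.6 and 38.6 and was 1.65-fold lower in KO at a low signal. This call was lost under 6 of the 9 other settings. Another weak probe set of Tyms alone went the other way, with 37.9, 49.8 and 43.4. The stronger probe set that Tyms shares with a pseudogene, Tyms-ps, had 776, 520 and 517.

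Of the genes at the G1/S border, Ccne1 alone was past the cut-off. Ccne1, cyclin E1, had signals of 210 (WT), 136 (KO) and 108 (KOE), whereas Ccne2, cyclin E2, had 367, 360 and 255. E2f1, an activating E2F factor, had 153, 132 and 107. Ccnd1, cyclin D1, which responds to growth signals in G1 phase, had 3020, 2641 and 2676, so that the 3 arrays lay within the cut-off of each other.

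Scaling between arrays bears on these directions, because the median signal over probe sets was 116 (WT), 96.3 (KO) and 108 (KOE). Scaling the arrays to a common median added 0.27 to every log2 fold change of KO vs. WT. Then 17 of 23 mitosis members were still lower, with a median of −0.71, whereas 1 of 17 replication members was lower (Mcm2) and the replication median turned from −0.24 to 0.02. Among all genes 8.88% were then lower and 23.2% higher. The difference between the classes, which such scaling cannot change, was −0.67 after quantile normalization, −0.68 after cyclic loess normalization and −0.63 with the mean over the probe sets of a gene. Of the 23 members lower in KO, 15 kept this call under each of the 9 other settings run at the same fold limit, and none of the 15 was a replication member. Between 17 and 20 mitosis members were lower under these settings. No direction can be given for the replication members as a class, since their median turned with the scaling.

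**Figure D3:**
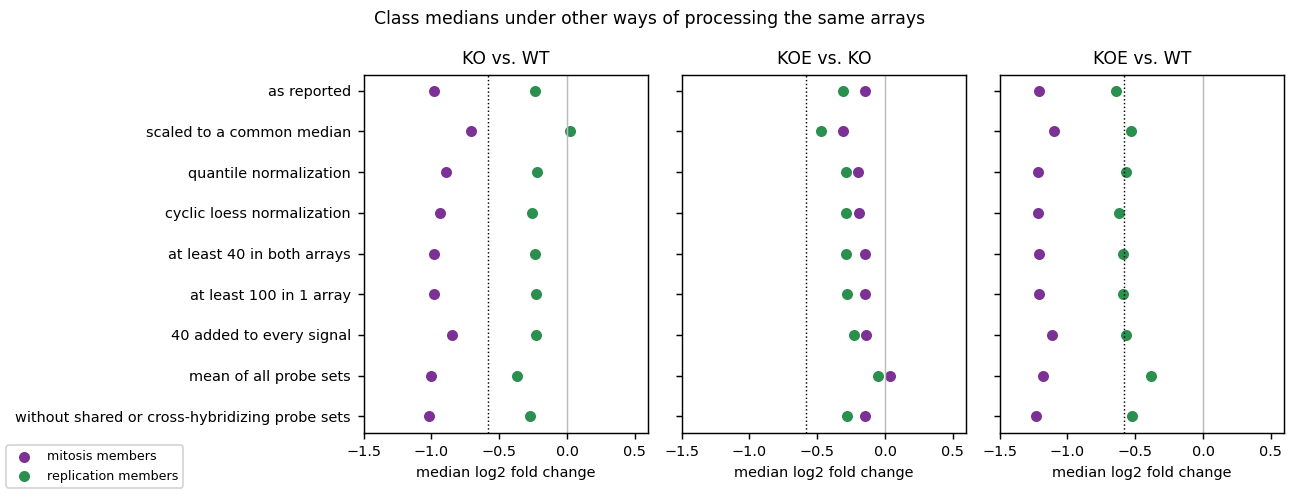
Median log2 fold change (x axis) of the 23 mitosis and 17 replication members in each comparison, 1 row per way of processing the same 3 arrays, with a dotted line at 1.5-fold lower. In KO vs. WT the mitosis median lies left of the replication median in every row, and in KOE vs. KO the replication median lies slightly to the left.

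The probe sets of a member are separate readings of the same RNA, and they showed the same contrast between the classes. In KO vs. WT, 47 of 54 probe sets of mitosis members reached 40, and 41 of these were lower past the cut-off. For the replication members 37 of 43 reached 40 and 8 were lower. No probe set of a member was higher past the cut-off, while over all probe sets that reached 40 on either array 20.2% were lower and 10.6% higher. Of 30 members with several probe sets over 40, all probe sets were lower in 12, none was past the cut-off in 7, and 11 were split. The split members include Prc1, whose second probe set had signals of 761 (WT), 443 (KO) and 600 (KOE), and Gins1, whose second probe set had 40.4, 22.5 and 41.3. In Rrm1 a weak probe set had 46.5, 4.41 and 38.5 beside a strong one that hardly differed.

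**Figure D4:**
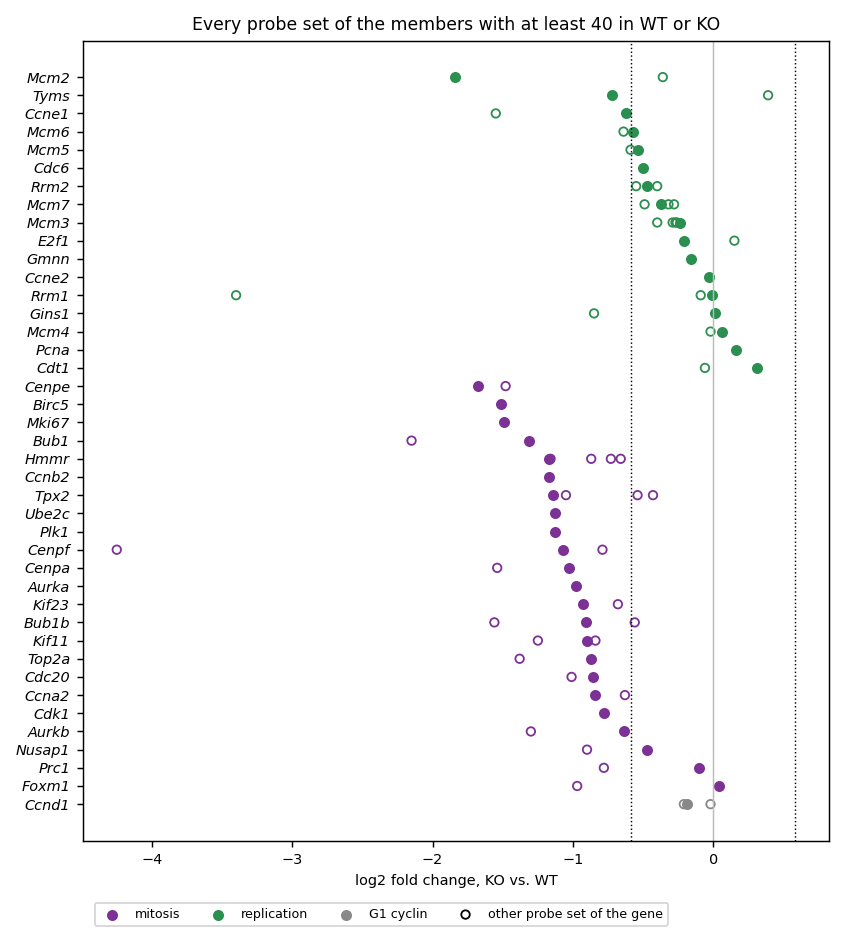
Log2 fold change of KO vs. WT (x axis) for every probe set of the members with a signal of at least 40 in WT or KO. Filled points are the probe sets used for the gene, open points its other probe sets, and dotted lines mark 1.5-fold. Of 47 mitosis probe sets 41 lie left of the left line, against 8 of 37 replication probe sets, and Mcm2, Foxm1, Prc1 and Rrm1 have points on both sides of it.

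Supplementation with pESM was next compared within the knockout. In KOE vs. KO, 4 of the 41 members were past the cut-off, all lower, where 5.33% of 14594 genes were lower and 10.9% higher. The 4 were Bub1 (1.72-fold lower), Kif11 (1.75-fold), Gins1 (1.60-fold) and Cdc6 (1.51-fold), and none of these calls held under all 9 other settings. Over the probe sets of the members in this comparison, 6 of the 85 that reached 40 were lower past the cut-off and 5 were higher, beside 5.93% lower and 14.5% higher over all probe sets. Second, weaker probe sets of Bub1 and Gins1 were among the higher ones, with log2 fold changes of 1.34 and 0.88, so the probe sets of these genes gave opposite calls. With 4 members, the share of 9.76% was not read as a difference from all genes. The median log2 fold change was −0.15 for the mitosis members and −0.31 for the replication members, against 0.02 for all genes. After scaling to a common median 10 members were lower, namely Cdk1, Bub1, Bub1b, Kif11, Nusap1, Gins1, Cdc6, Cdt1, Gmnn and Ccne2, beside 9.01% of all genes lower and 8.03% higher under that scaling.

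At the probe sets used, the replication members mostly had lower signals in KOE than in KO. The KOE signal was below KO in 16 of 17 replication members, with Mcm2 the exception, and in 16 of 23 mitosis members, while 46.8% of all genes were below. Under the median, quantile and cyclic loess scalings the replication count was also 16. The share of all genes below was then 68.9%, 51.4% and 51.5%, in that order. With the mean over the probe sets of a gene the replication count was 9. The SD among probe sets of the same member was 0.32 on the log2 scale in this comparison, and 8 of the 17 replication members differed by more than that, 7 of them lower in KOE. Where 40 in either array sufficed the SD was 0.45, and 4 differed by more, all lower. Among the replication genes, Gmnn went from 753 in KO to 530 in KOE, Ccne2 from 360 to 255, and Cdt1 from 779 to 573, all short of 1.5-fold.

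In KOE vs. WT, 30 of the 41 members were past the cut-off, all lower, beside 10.4% of 14784 genes lower and 12.4% higher. The mitosis members gave 21 of 23 and a median log2 fold change of −1.21, and all but Prc1 and Foxm1 were lower. The replication members gave 9 of 17, with a median of −0.64, and these were Mcm2, Mcm5, Mcm6, Gins1, Cdc6, Gmnn, Rrm2, Tyms and Ccne1. After scaling to a common median the replication count was 4 and the mitosis count stayed at 21, beside 8.33% of all genes lower and 16.6% higher. Bub1 showed the lowest ratio of KOE to WT among the members at the probe sets used, with a log2 fold change of −2.09, followed by Kif11 at −1.70. The second probe set of Bub1 had −0.81. With the mean over the probe sets of a gene Bub1 had −1.45, and Cenpa lay lower, at −1.76.

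Across the 3 arrays, WT was highest in 36 of 41 members (87.8%), compared with 34.9% of 15010 genes that reached 40 on any array. At the probe sets used, KOE was the lowest array in 32 of 41 (78.0%), compared with 25.2% of genes. In 8 members KOE lay between KO and WT, namely in Plk1, Aurka, Cenpe, Birc5, Prc1, Hmmr, Mcm2 and Ccnd1, and in Foxm1 it was above both. The comparisons with KO share the KO array, so these orders are not separate pieces of evidence. At those probe sets the KOE pool did not lie between the KO and WT pools for most members. With the mean over the probe sets of a gene, KOE was below KO in only 11 of 23 mitosis and 9 of 17 replication members. The order of KO and KOE thus depends on the probe sets.

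Other genes of the same processes, listed beside the members, showed a similar split between the classes. Of 60 other mitosis genes, 32 (53.3%) had lower signals past the cut-off in KO vs. WT and 1 had a higher signal. The median log2 fold change was −0.64, and among all genes 14.5% were lower and 10.9% higher. Where both arrays reached 40, the lowest ratios were those of Cdca2, a chromatin protein of mitotic exit, with signals of 262 (WT), 61.7 (KO) and 66.1 (KOE), and Kif2c, a kinesin that disassembles microtubules, with 479, 156 and 144. The 1 higher gene was Kif15, a spindle kinesin, at low signals of 16.1, 53.0 and 42.8. Pttg1, securin, which holds back separase, was not past the cut-off and had 3841, 5347 and 5060. After scaling to a common median 19 of the 60 were lower and 2 higher, beside 8.88% of all genes lower and 23.2% higher. In KOE vs. KO, 7 of the 60 (11.7%) were lower and 1 was higher, Melk, beside 5.33% and 10.9% of all genes. In KOE vs. WT 44 (73.3%) were lower and 1, again Kif15, was higher, beside 10.4% and 12.4% of all genes.

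Of 51 measured genes among 54 other replication genes, 6 (11.8%) were past the cut-off in KO vs. WT, all lower, beside 14.5% of all genes lower. The median was −0.15, which turned to 0.12 after scaling to a common median. Mcm10, which helps to activate the helicase, had signals of 226 (WT), 104 (KO) and 96.4 (KOE). Brca1, which protects and repairs stalled forks, had 387, 181 and 169. Where both arrays reached 40, these 2 genes had the lowest ratios of KO to WT in this list, 0.459 and 0.467. Prim1, the catalytic subunit of primase, had 1534, 1885 and 1515, and Orc5, a subunit of the origin recognition complex, had 793, 991 and 893. In KOE vs. KO, 3 replication genes (5.88%) were lower and 1 was higher, beside 5.33% of all genes lower and 10.9% higher. The lower ones were Dscc1, which helps to load the clamp, with 122 in KO and 59.8 in KOE, Prim2, the other primase subunit, with 390 and 222, and Ticrr, a factor for origin firing, with 74.0 and 13.4. The higher one was Orc1, the largest origin recognition subunit, with 107 (WT), 10.9 (KO) and 131 (KOE). The KOE signal of Ticrr and the KO signal of Orc1 lie under 40, so the sizes of these differences are uncertain.

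**Figure D5:**
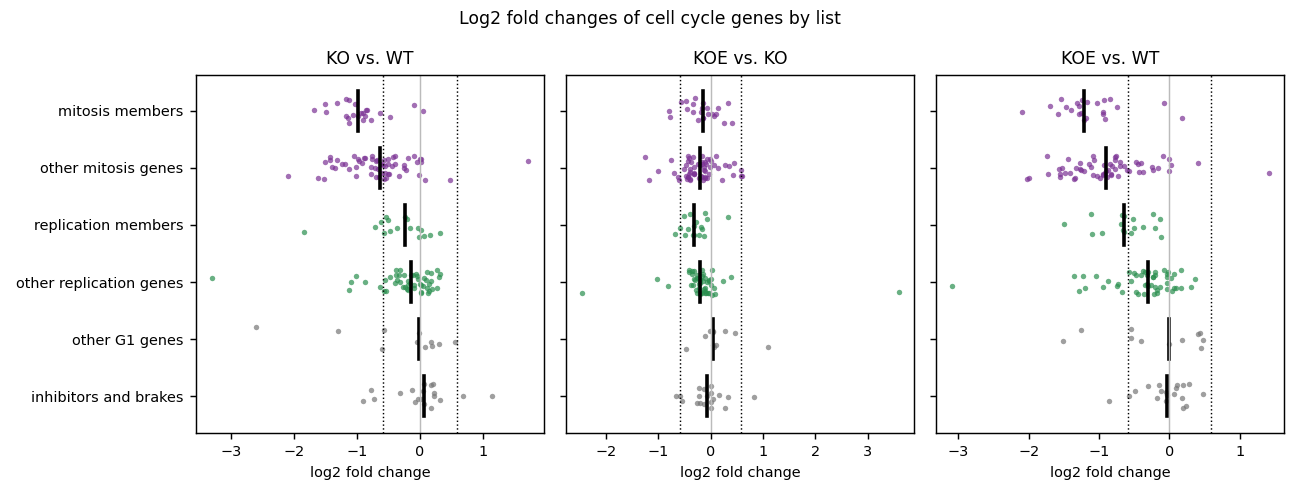
Log2 fold change (x axis) of each gene in the member classes and in 4 lists of other cell cycle genes, for the 3 comparisons, with black bars at the medians and dotted lines at 1.5-fold. In KO vs. WT the medians are −0.98 for mitosis members, −0.64 for other mitosis genes, −0.24 for replication members and −0.15 for other replication genes, and in KOE vs. KO all 4 of these medians lie between −0.31 and −0.15.

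Inhibitors of the cell cycle did not move as a group. Of 19 measured genes, 2 were higher and 2 lower in KO than in WT, beside 10.9% and 14.5% of all genes. The median log2 fold change was 0.07. Cdkn1c, the kinase inhibitor p57, had signals of 303 (WT), 665 (KO) and 421 (KOE), and was 2.20-fold higher in KO. Btg2, an antiproliferative gene, had 1425, 2287 and 1515, and was 1.60-fold higher. In both, KOE lay between KO and WT. The lower ones were Gadd45a, a stress-induced growth arrest gene, with 426, 250 and 303, and Lin52, a subunit of the MuvB complex, with 97.1, 58.6 and 104. After scaling to a common median 0 were lower and 3 higher, beside 8.88% and 23.2% of all genes. Among 11 other genes of G1 phase, 3 (27.3%) were past the cut-off in KO vs. WT, all lower, beside 14.5% of all genes lower. Mycn, a growth-promoting MYC factor, had 701, 116 and 246, and was 6.04-fold lower in KO, whereas its relative Myc had 937, 1384 and 1283. E2f3, another activating E2F factor, had 537, 217 and 227. Ccnd2, cyclin D2, was nearly level, with 6717, 6476 and 6671.

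The same motifs were then counted outside the members, a count added after the motif shares were seen. Outside the members, 624 measured genes held both a cell cycle homology region and a CCAAT box. Of these, 16.0% were lower and 12.0% higher in KO than in WT, with a median log2 fold change of −0.01. Among all 11063 measured genes with a window, 13.0% were lower and 10.3% higher, with a median of 0.02. Of 467 measured genes with an E2F motif outside the members, 8.78% were lower and 7.49% higher. In KOE vs. KO 6.60% of the genes with both a cell cycle homology region and a CCAAT box were lower, beside 4.84%. In KOE vs. WT the share was 15.8%, beside 9.54%. Of the genes with an E2F motif, 2.52% were lower in KOE vs. KO and 9.28% in KOE vs. WT. The other mitosis genes listed above were not left out of these sets. These shares were not tested. In 4 measured mitosis members with a window, TTTGAA, the only form of the cell cycle homology region searched, was missing. Of these, Birc5, Cenpe and Bub1 were past the cut-off in KO vs. WT and Nusap1 was not.

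Markers of basal keratinocytes, the dividing layer of the epidermis, went the other way. Of 8 genes, 4 were higher in KO than in WT and none was lower, with a summed signal of 89650 (WT), 115838 (KO) and 113948 (KOE), and after the other scalings 3 or 4 were higher. Muscle and fat markers were lower in KO but higher in KOE, unlike the members. Of 12 muscle markers 10 were lower and 1 was higher in KO than in WT, and 11 were higher in KOE than in KO. Of 6 adipocyte markers 5 were lower in KO and 5 were higher in KOE than in KO, although the dermal white adipose tissue had been removed. None of 10 macrophage and dendritic cell markers was past the cut-off in KO vs. WT, and 5 were lower and 1 higher in KOE than in KO. Over all genes 14.5% were lower and 10.9% higher in KO vs. WT, and 5.33% and 10.9% in KOE vs. KO. The part of these cells in the result was not tested.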

How the data were processed

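Pooled back skin RNA of the WT, KO and KOE groups was measured on 3 Affymetrix arrays. Linear signal intensities were deposited by the authors, whose methods name R for conversion and the Affymetrix Microarray Analysis Suite for normalization. The 2% trimmed mean was checked and is equal across the arrays. The number of arrays limits the precision.

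Control probe sets (64 of 45101) were left out. The platform annotation gave 1 gene for 34945 probe sets, several for 932 and none for 9160. The probe set with the highest mean over the arrays stood for a gene, if it named no other gene. Ratios of the deposited signals were counted at 1.5-fold with a signal of at least 40 in 1 of the 2 arrays. No test was possible with 1 array per group, and no p-value is given.

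The members, lists and promoter rule were chosen with earlier results of these data known. All members may be named. Of each list of other pathway genes, the 2 highest and 2 lowest ratios of KO to WT and of KOE to KO may be named, where both arrays reached 40, and of each marker list the 2 strongest genes. Kif15, Ticrr, Orc1 and Ccnd2 were named after their values were seen. The SD between probe sets of a gene was first taken over probe sets that reached 40 in either array, and was limited to both arrays after results were seen. Marker lists not described in the report were those of suprabasal keratinocytes, fibroblasts, hair follicle bulge, sebaceous gland, T, B and endothelial cells and neutrophils. In KO vs. WT their counts of genes lower and higher were 0 and 0 of 9, 1 and 0 of 6, 2 and 1 of 7, 1 and 0 of 7, 0 and 1 of 8, 0 and 0 of 5, 0 and 1 of 6, and 0 and 2 of 4, in that order.

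Alternatives were a common median, quantile and cyclic loess normalization (span 0.7, 3 iterations), signal limits of 40 in both arrays, of 100 and none, 40 added to every signal, a 2-fold limit, the mean of all probe sets, and probe sets without shared or cross-hybridizing suffixes. Counting was tested on simulated data. Promoter windows were 300 bases long and came from RefSeq (GRCm38.p6). Python 3.11.15 (numpy 2.4.6, pandas 2.3.3, scipy 1.17.1, matplotlib 3.10.9) and R 4.3.3 (limma 3.58.1) were used.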

Additional observations from a re-analysis of the deposited data

How the results depend on the processing

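With 1 array per group no replicate could be left out, and the only estimate of error is the spread between probe sets of 1 gene, which holds the probes and not the mice. No paired analysis was possible because each group has a single array. At a 2-fold limit 12 members were lower in KO than in WT, none in KOE than in KO (0 of 41), and 18 in KOE than in WT. In KOE vs. KO the count of lower members was 10 after scaling to a common median and 2 with 40 added to every signal. Averaging all probe sets of a gene gave 1 higher member in KO vs. WT and 1 in KOE vs. KO, and turned the log2 fold change of Aurka in KO vs. WT to 0.66, and those of Bub1 and Gins1 in KOE vs. KO to 0.28 and 0.10. In Aurka this comes from a second probe set with signals of 4.65 (WT), 23.0 (KO) and 1.00 (KOE), which weighs as much as the strong one. In Bub1 and Gins1 it comes from the weaker second probe sets named in the report, which went the other way. The higher members were Aurka in KO vs. WT and Rrm1 in KOE vs. KO, the latter through its weak probe set with signals of 46.5 (WT), 4.41 (KO) and 38.5 (KOE). The same setting moved the KOE vs. KO medians from −0.15 to 0.04 for the mitosis members and from −0.31 to −0.05 for the replication members. In KO vs. WT the replication median was 0.02 after scaling to a common median and between −0.37 and −0.22 in the other settings, and the mitosis median was between −1.02 and −0.71. Replication members lower in KO vs. WT numbered 1 after median and quantile scaling and 2 after cyclic loess, against 3 as reported. In the setting without shared or cross-hybridizing probe sets Aurkb could not be read. Weak probe sets limit the values of Tyms and Cdc6, whose signals lay nearest to 40.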

Other observations

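A few cell cycle genes outside the members differed between the pools in their own way. Melk, a kinase gene of dividing cells, had signals of 280 (WT), 174 (KO) and 263 (KOE), so that KOE lay near WT. Cit, citron kinase of cytokinesis, had 181, 192 and 85.3, and Cenph, a kinetochore gene, had 174, 129 and 64.3, so that KOE was lowest. Cdk6, a kinase of G1 phase, had 986, 971 and 1331 and was highest in KOE, by less than the cut-off.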
